A study of Mus musculus with 6 samples.

Results

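The globin genes of the mouse were examined in 6 RNA-seq libraries, 3 labelled bone and 3 labelled osteoblasts. The members were chosen by name: the adult beta globins *Hbb-bt* and *Hbb-bs*, the adult alpha globins *Hba-a1* and *Hba-a2*, the embryonic beta-like globins *Hbb-bh1* and *Hbb-y*, the embryonic alpha-like globin *Hba-x* and *Ahsp*, which encodes the chaperone of free alpha chains. Of these 8 genes, 4 had a named row in each of the 6 deposited tables (*Hbb-bt*, *Hba-x*, *Hbb-bh1* and *Hbb-y*), out of 48734 named genes in all. No row in any library carried the name *Hbb-bs*, *Hba-a1*, *Hba-a2* or *Ahsp*, and *Ahsp* was not analysed here.

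All libraries came from the Collaborative Cross strain CC016/GeniUnc, an inbred mouse strain. The libraries labelled bone were made from the bone of femora after the marrow had been spun out. The libraries labelled osteoblasts were made from cells of that marrow that adhered to plastic and were differentiated in culture with ascorbic acid, beta-glycerophosphate and dexamethasone, without a sorting step. By the study's methods, 3 mice gave the femora from which both the bone and the marrow cells were taken, so the sample types share animals. The labels give neither age nor sex, and neither source says that libraries with the same number came from the same mouse. No gene was altered in any of these samples, and the labels differ only in sample type.

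Hemoglobin carries oxygen in red cells as a tetramer of alpha and beta chains, each with a heme group. The alpha genes lie in a cluster on chromosome 11 and the beta genes in another on chromosome 7, and in each cluster embryonic genes are used in the first red cells of the embryo and adult genes afterwards. In the adult mouse, globin mRNA is made by the nucleated red cell precursors of the marrow and persists in reticulocytes. Globin transcription depends on the factors Gata1, Klf1 and Tal1, and on short promoter elements: the TATA box, the CCAAT box and, in adult beta globin, the CACCC box bound by Klf1.

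The stretches that carry these elements are shown because the members fall into adult and embryonic genes and because the pairs of adult genes are near copies of each other. RefSeq (GRCm38.p6) held a promoter for 6 of the 8 members, and the 120 bases before each annotated start are printed 5′ to 3′ on the strand of the gene. Capitals mark matches, on either strand, to the CACCC box (letters CACCC), the CCAAT box (letters CCAAT), the TATA box (letters TATAA) and the GATA site (letters GATAA). None of the 20 matches overlapped another. In *Hbb-bt*, 2 matches to the CCAAT box lie on the other strand and appear as ATTGG. The windows are *Hbb-bt* chr7:103813924-103814043 and *Hbb-bs* chr7:103827929-103828048 on the minus strand, *Hba-a1* chr11:32283552-32283671 and *Hba-a2* chr11:32296372-32296491 on the plus strand, *Hbb-y* chr7:103853208-103853327 on the minus strand and *Hba-x* chr11:32276480-32276599 on the plus strand.
Hbb-bt: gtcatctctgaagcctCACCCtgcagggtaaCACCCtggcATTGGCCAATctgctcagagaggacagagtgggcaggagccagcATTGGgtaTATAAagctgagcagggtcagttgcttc
Hbb-bs: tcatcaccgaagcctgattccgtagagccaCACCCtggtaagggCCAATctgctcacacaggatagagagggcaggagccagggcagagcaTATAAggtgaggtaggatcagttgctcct
Hba-a1: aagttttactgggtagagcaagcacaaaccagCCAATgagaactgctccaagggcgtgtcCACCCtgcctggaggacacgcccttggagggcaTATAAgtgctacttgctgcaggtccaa
Hba-a2: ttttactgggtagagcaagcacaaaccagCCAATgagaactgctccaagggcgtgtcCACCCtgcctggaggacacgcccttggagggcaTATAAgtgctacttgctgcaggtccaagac
Hbb-y: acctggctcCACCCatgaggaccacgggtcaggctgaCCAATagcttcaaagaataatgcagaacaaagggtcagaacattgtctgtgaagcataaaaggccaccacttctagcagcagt
Hba-x: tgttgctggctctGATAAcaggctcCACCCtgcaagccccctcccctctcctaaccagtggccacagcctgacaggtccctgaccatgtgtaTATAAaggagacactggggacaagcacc

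CACCC was present in 6 of the 6 windows, against 31.7% of 32851 RefSeq promoter windows of the same length. CCAAT was present in 5 of 6 (all but *Hba-x*) against 21.3%, and TATAA in 5 of 6 (all but *Hbb-y*) against 11.8%. GATAA was present only in *Hba-x* among the 6, against 10.5% of all windows. The matches describe these letters and were not tested as binding sites. The windows of *Hba-a1* and *Hba-a2* shared an unbroken run of 117 of 120 bases, whereas the longest run shared by *Hbb-bt* and *Hbb-bs* was 14 bases.

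The likeness extends into the coding sequence. In the GENCODE vM1 transcripts, *Hba-a1* and *Hba-a2* were identical at 428 of 429 coding bases, with an unbroken identical run of 380 bases. The adult beta pair, which that annotation names *Hbb-b1* and *Hbb-b2*, was identical at 443 of 444. The reads were 75 bp long, so most reads from within these coding sequences could not be assigned to a single gene of either adult pair. The untranslated parts were not compared. The coding sequences and the windows above are those of the reference, and the sequence of the strain CC016/GeniUnc was not examined. The embryonic genes were further apart: *Hbb-y* shared 339 of 444 coding bases with *Hbb-bh1* (76.4%) and 330 of 444 with *Hbb-b1* (74.3%), and the longest run it shared with *Hbb-b1* was 22 bases.

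The deposited rows did not keep the adult genes apart either. The row named *Hbb-bt* ran from 103812524 to 103833723 on the minus strand of chromosome 7 (GRCm38), a length of 21200 bp, whereas RefSeq gives the gene 1400 bp. It covered *Hbb-bt*, *Hbb-bs* (103826523 to 103827928) and the pseudogenes *Gm15115* and *Hbb-bh3*. This row therefore holds the adult beta globins together and no embryonic one. The row named *Hba-x* ran from 32276400 to 32297298 on the plus strand of chromosome 11, a length of 20899 bp against 1517 bp for the gene. It covered *Hba-x*, *Hba-a1* (32283672 to 32284486), the theta globin *Hbq1b* and *Hba-a2* (32296492 to 32297310). Embryonic and adult alpha globin cannot be told apart within it, so it is read here as the alpha cluster and not as *Hba-x*. The rows named *Hbb-bh1* (1528 bp) and *Hbb-y* (1468 bp) matched their own genes to within a few bases.

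**Figure D1:**
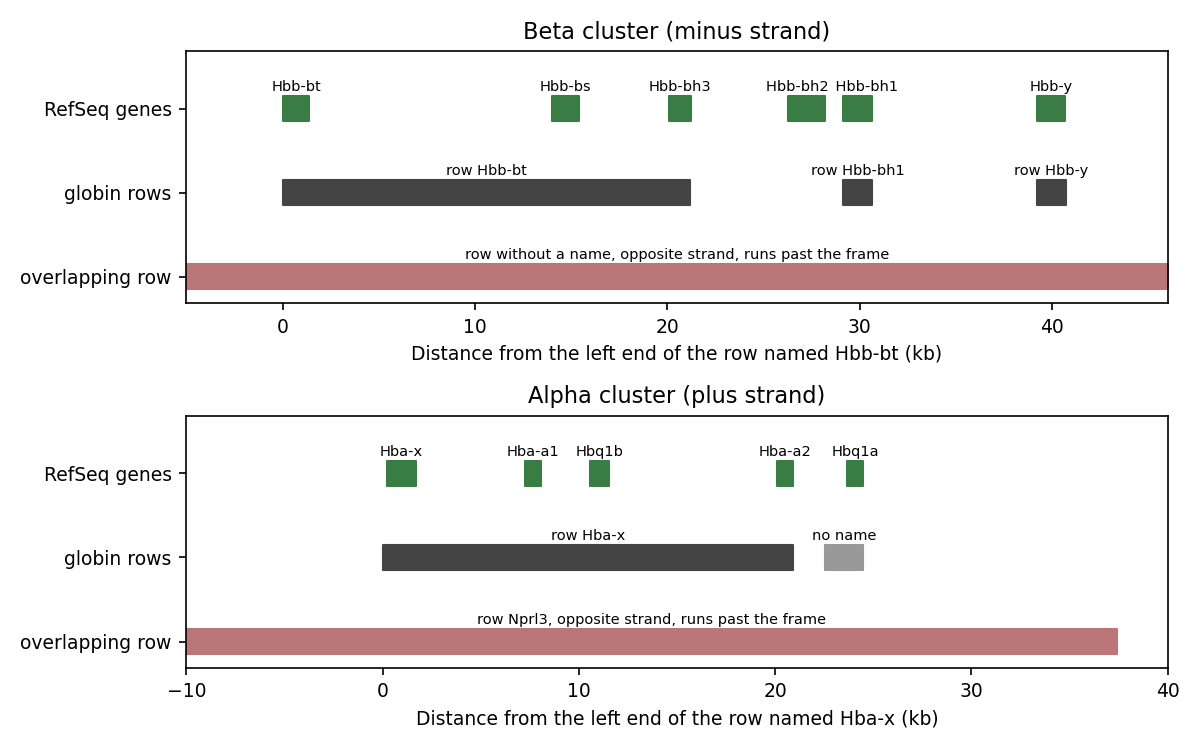
The beta cluster and the alpha cluster drawn to scale, with distance in kb from the left end of the adult row on the x axis, RefSeq genes in green, deposited globin rows in dark grey, a row without a name over *Hbq1a* in light grey and the overlapping opposite-strand row in red. The row named *Hbb-bt* spans both adult beta genes and the row named *Hba-x* spans 4 alpha-like genes, while *Hbb-bh1* and *Hbb-y* have rows of their own.

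The 6 libraries did not divide by their labels. By the ratio of coverage to FPKM they held between 2.04 and 3.39 Gb of aligned sequence, and rows without a gene name took 71.5% of all FPKM in bone 2 and 65.0% in osteoblasts 1 but 27.4% to 30.7% in the others. FPKM gives the fragments of a row relative to its transcript length and to all aligned fragments of the library. The libraries labelled bone 3, osteoblasts 2 and osteoblasts 3 were alike in most of what follows, as were bone 1, bone 2 and osteoblasts 1. *Ibsp*, which encodes bone sialoprotein, was between 986 and 1278 FPKM in bone 1, bone 2 and osteoblasts 1 and between 43.1 and 91.3 in the other 3. *Sost*, made by osteocytes, was between 0.0661 and 0.198 FPKM in the former and between 15.8 and 22.7 in the latter. Other markers of the same cells divided these libraries in the opposite direction, and some did not divide them. The osteocyte marker *Dmp1* was 50.0 to 127 FPKM in the former and 22.5 to 24.2 in the latter. The osteoblast marker *Bglap2* was 264 to 513 FPKM in the former and 1641 to 1959 in the latter. Bone 3 and osteoblasts 1 thus resembled the libraries of the other label, so the labels of the 6 libraries are in doubt. Which labels are at fault, theirs or those of the other libraries, was not tested. The deposited labels are used as they stand, and each difference by label below holds only as far as these labels do.

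The row named *Hbb-bt*, the adult beta globins, stood at 7.05, 3.58 and 34838 FPKM in bone 1, 2 and 3 and at 3.43, 34268 and 48649.6 FPKM in osteoblasts 1, 2 and 3. The row named *Hba-x*, the alpha cluster, stood at 9.69, 5.98 and 25617 FPKM in bone and at 3.59, 24883 and 39214 FPKM in osteoblasts. Both rows were high in the same 3 libraries, bone 3, osteoblasts 2 and osteoblasts 3, and low in the other 3, so the labels overlapped across the whole range. Between the lowest of the high libraries and the highest of the low ones lay 4859-fold for the beta row and 2569-fold for the alpha row. Within the high libraries the rows were close: bone 3 exceeded osteoblasts 2 by 1.02-fold for beta and 1.03-fold for alpha, and osteoblasts 3 exceeded osteoblasts 2 by 1.42-fold and 1.58-fold. The step thus lay within each label: bone 3 was 4940-fold above bone 1 in beta globin, and osteoblasts 2 was 10002-fold above osteoblasts 1. In bulk RNA, fewer cells of a type and less RNA per cell cannot be told apart.

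**Figure D2:**
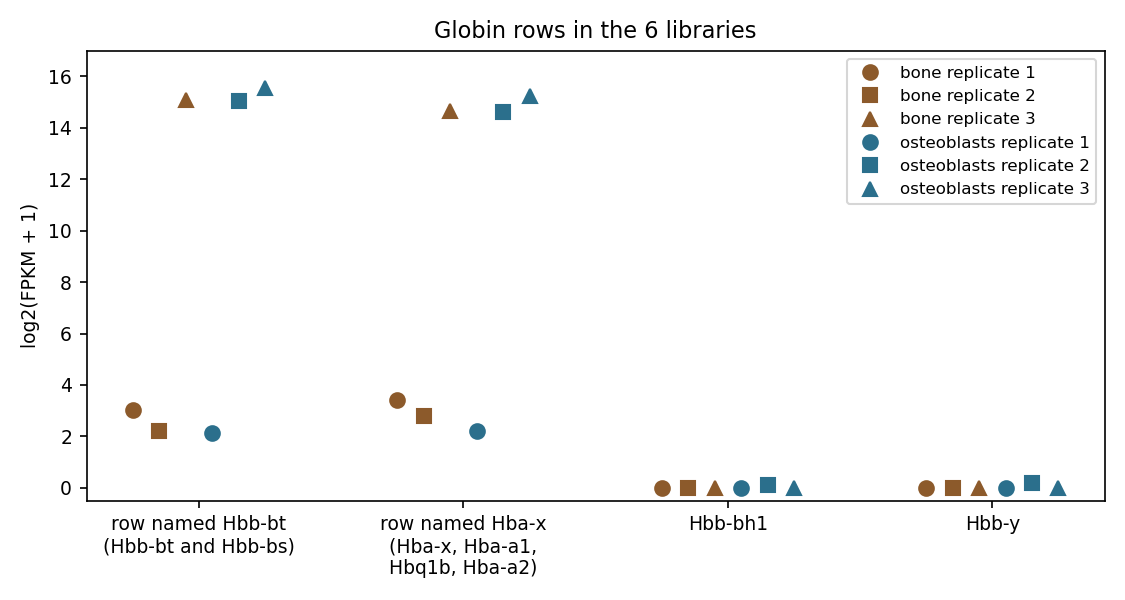
Log2(FPKM + 1) on the y axis for the 4 globin rows on the x axis, with 1 point per library, bone in brown and osteoblasts in blue, and the replicate number given by the shape. The adult beta row and the alpha cluster row were each high in bone 3, osteoblasts 2 and osteoblasts 3 and low in the other 3 libraries, and the embryonic rows *Hbb-bh1* and *Hbb-y* were at or near 0 in all 6.

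Against the rest of the transcriptome, the beta and alpha rows ranked 4 and 5 among all named genes in bone 3 and in osteoblasts 2, and 3 and 4 in osteoblasts 3. Together they made up 6.90%, 6.87% and 10.7% of the FPKM on named genes in these libraries. In bone 1, bone 2 and osteoblasts 1 they made up 0.00281%, 0.00269% and 0.00180%. In the low libraries the deposited FPKM were above 0. The beta row exceeded 45.0% of the genes with at least 1 FPKM in bone 1, 37.1% in bone 2 and 29.6% in osteoblasts 1, and the alpha row exceeded 55.6%, 56.3% and 31.3%. These ranks and shares rest on FPKM. On the scale of FPKM, mean coverage gives the beta row 2975, 2920 and 4135 in bone 3, osteoblasts 2 and osteoblasts 3. It gives the alpha row 2717, 2653 and 3651 there, and no rank or share was taken from coverage. In bone 1, bone 2 and osteoblasts 1 it gives the beta row only 0.587, 0.312 and 0.288. It gives the alpha row 0.882, 0.453 and 0.272 there. Both are near the limit of detection, and the alpha row also holds *Hba-x* and *Hbq1b*.

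The design asks whether the globins differ between bone and osteoblasts. For the beta row the means were 11616 ± 20111 FPKM in bone and 27640.2 ± 24991 in osteoblasts (SD, n = 3 each), and for the alpha row 8544 ± 14786 and 21367 ± 19840. The SD was as large as the mean or nearly so in each case. In limma on log2(FPKM + 1) over 12112 genes, *Hbb-bt* differed by 4.16 (osteoblasts minus bone, SE 4.08) and *Hba-x* by 3.73 (SE 3.86), both with an adjusted p of 0.999. Both were higher in 2 of 3 osteoblast libraries than in 2 of 3 bone libraries, and neither was called. Over all genes, limma called 0% after adjustment. Before adjustment 17 genes fell under 0.05, none of them a member. The median difference of all genes tested was 0.12, and scaling to the named genes moved it to -0.03.

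The sum of both rows, as log2(sum + 1), was 7.81 ± 7.00 in bone and 11.76 ± 7.59 in osteoblasts (SD, n = 3), a difference of 3.95 that was smaller than either SD (exact permutation test, two-sided, p = 0.8). With 3 libraries against 3 this test cannot go below 0.1. These p-values measure only the spread between these libraries. Leaving out bone 3 brought the limma differences to 8.32 for *Hbb-bt* and 7.58 for *Hba-x* (both adjusted p = 0.0489), with 77 of 12112 genes called. Leaving out osteoblasts 1 brought them to 8.55 and 7.98 (both adjusted p = 0.00391), with 300 of 12112 genes called. Leaving out any of the other 4 libraries brought them to between 1.84 and 2.28 for *Hbb-bt* and between 1.45 and 1.96 for *Hba-x*, with no call: 2.28 and 1.96 without bone 1, 1.88 and 1.66 without bone 2, 2.09 and 1.77 without osteoblasts 2, and 1.84 and 1.45 without osteoblasts 3. The size of the difference therefore depended on each library. A limma fit blocked by replicate number called both rows (adjusted p = 0.000877 for *Hbb-bt* and 0.00365 for *Hba-x*) at the same differences of 4.16 and 3.73, with 49 of 12112 genes called. In that fit each gene took the variance of the trend rather than its own, and the numbers were not taken to pair the samples. Over the 13 alternatives tried, the adjusted p lay between 0.000877, under that block, and 1.

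How common the pattern was across the transcriptome sets the scale for it. Of the 12112 genes, 38.4% had their 3 highest values in bone 3, osteoblasts 2 and osteoblasts 3, as did 2 of the 2 globin rows that passed the filter of a mean of at least 1 FPKM. These 3 libraries were taken as those with the highest summed globin FPKM, so the globin rows themselves defined the split. Another 16.9% had their 3 lowest values there. Only 0.916% of genes separated the labels without overlap, and neither globin row was among them. Of these 3 arrangements the globin rows had the most frequent. Their count of 2 was fixed by the choice of the split and cannot be read against the background.

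Alpha and beta chains are needed in equal numbers, and excess alpha chains precipitate, which is what Ahsp prevents. The ratio of the alpha row to the beta row was 1.37, 1.67 and 0.735 in bone 1, 2 and 3 and 1.05, 0.726 and 0.806 in osteoblasts 1, 2 and 3. On this scale beta exceeded alpha in the 3 libraries with high globin, and alpha exceeded beta in the 3 with low globin. Both rows moved together over more than 3 orders of magnitude while their ratio, for the rows as deposited, kept within 2.30-fold. As log2 of the ratio with 1 added to both rows, bone stood at 0.19 ± 0.56 and osteoblasts at -0.24 ± 0.27 (SD, n = 3), a difference of -0.43 (exact permutation test, two-sided, p = 0.3). Because the tables hold no counts, no interval is given for a ratio in a single library. The FPKM of both rows were 9.38 to 13.2 times the level that their own mean coverage gives, where single-gene rows such as *Hbb-y* gave a factor of 1.00, so their level relative to single-gene rows depends on how the authors' software summed the transcripts in them. The factor differed between the rows, and on mean coverage the ratio of alpha to beta was 1.50, 1.45 and 0.913 in bone and 0.945, 0.909 and 0.883 in osteoblasts. Osteoblasts 1 thus changed sides, and the difference in log2 ratio came to -0.20 (exact permutation test, two-sided, p = 0.2).

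**Figure D3:**
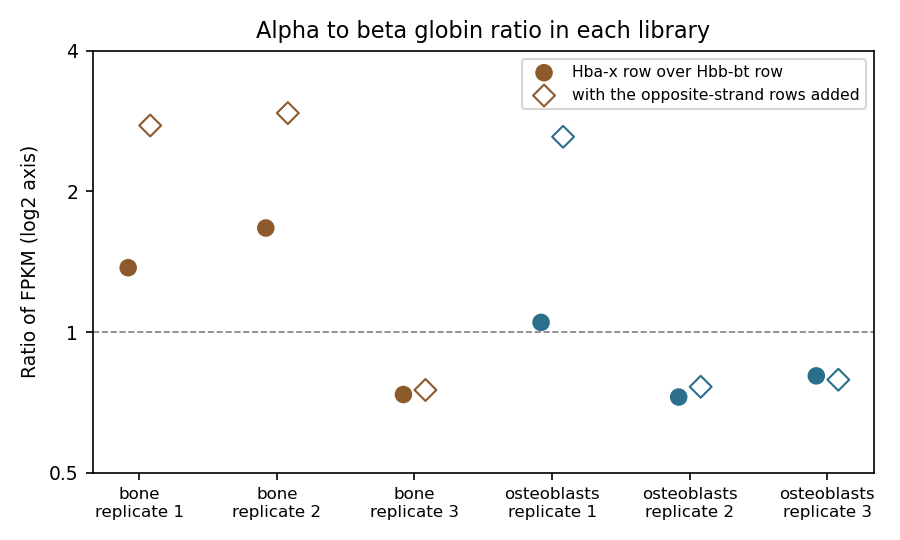
The ratio of the *Hba-x* row (alpha cluster) to the *Hbb-bt* row (adult beta) on a log2 axis for each library, with bone in brown and osteoblasts in blue, filled circles for the rows as deposited, open diamonds with the opposite-strand rows added, and a dashed line at 1. Circles lay at 0.726 to 0.806 in bone 3, osteoblasts 2 and osteoblasts 3 and at 1.05 to 1.67 in the others.

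Other rows also ran across both clusters. A row without a name on the plus strand of chromosome 7, from 103766087 to 103899036 and so across the whole beta cluster, was 0 in bone 1, bone 2 and osteoblasts 1. It stood at 6748 FPKM in bone 3, 6769 in osteoblasts 2 and 10814 in osteoblasts 3, which were 19.4%, 19.8% and 22.2% of the beta row. These percentages are in FPKM and carry the factor of the beta row over its coverage. No such factor was computed for the row without a name. On chromosome 11 the row named *Nprl3*, a gene next to the alpha cluster whose product acts in nutrient sensing, spanned 88170 bp on the minus strand against 35745 bp for the gene in RefSeq, and ran across the alpha globins. It stood at 9.83, 4.56 and 5649 FPKM in bone and at 5.37, 6462 and 7812 FPKM in osteoblasts. The kit used does not mark the strand of a read, so it does not by itself tell reads of globin from those of a row on the opposite strand. With the opposite-strand rows added to both clusters, the ratio of alpha to beta was 0.752, 0.764 and 0.791 in bone 3, osteoblasts 2 and osteoblasts 3, close to the values above, but 2.77, 2.94 and 2.62 in bone 1, bone 2 and osteoblasts 1. In the low libraries the row added to beta was 0, so the rise came from the *Nprl3* row alone. That row also covers the *Nprl3* gene, and how much of it was globin was not tested. The ratio in the low libraries therefore depended on which rows were counted.

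Embryonic beta-like globin was at or near 0. *Hbb-bh1*, used in primitive red cells, was 0 in 5 libraries and 0.0732 FPKM in osteoblasts 2, which is about 1 read pair. *Hbb-y*, the epsilon-like gene of the yolk sac, was 0 in the same 5 libraries and 0.142 FPKM in osteoblasts 2, about 2 read pairs. A limit of 3 read pairs corresponds to between 0.201 and 0.360 FPKM for these transcripts, so levels below that were not detectable at this depth. These limits cover counting error only. The pseudogene *Hbb-bh2*, between the adult and embryonic genes, was 0.104 FPKM in osteoblasts 3 and 0 elsewhere.

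Adult beta globin exceeded the embryonic genes by a wide margin wherever it was high. In bone 3 the beta row was at least 119169-fold higher in FPKM than *Hbb-bh1* and at least 128291-fold higher than *Hbb-y*, taking 3 read pairs as the limit for each gene, and at least 10177-fold and 10956-fold higher when its level was taken from mean coverage. In osteoblasts 3 it was at least 169202-fold and at least 182154-fold higher in FPKM, and at least 14381-fold and 15482-fold higher from coverage. In osteoblasts 2 it was 468156 times *Hbb-bh1* (exact Poisson 95% interval of the pair count, 85294.5 to 1.88e+07) and 241714 times *Hbb-y* (70813.9 to 2.11e+06). These 2 ratios rest on 1 and 2 read pairs, are in FPKM and carry its factor over coverage. Against the limit of 3 read pairs, the beta row in osteoblasts 2 was at least 158410-fold and 170536-fold higher in FPKM. From coverage it was at least 13500-fold and 14533-fold higher. In the libraries with low globin no such bound holds: on mean coverage the beta row was 1.99, 0.936 and 0.801 times the limit for *Hbb-bh1* in bone 1, bone 2 and osteoblasts 1, so an excess of adult over embryonic beta globin was not detectable in bone 2 or osteoblasts 1 at this depth, and *Hba-x* has no such value because its row holds the adult alpha genes too.

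Heme and globin are made together in red cell precursors, and the other genes of that cell were measured alongside. Of 13 genes of heme synthesis, 10 had a named row and passed the filter (not *Alad*, *Ppox* or *Abcb10*). Of these, 10 of 10 were highest in bone 3, osteoblasts 2 and osteoblasts 3, an order that 38.4% of all genes had. *Alas2*, the erythroid first enzyme of the pathway, was 0.208, 0.0880 and 750 FPKM in bone and 0.0540, 732 and 910 FPKM in osteoblasts. *Fech*, which inserts the iron, was 22.2, 10.8 and 172 FPKM in bone and 11.3, 169 and 199 FPKM in osteoblasts. *Alas1*, the form of the first enzyme used in other tissues, had a narrower range, at 20.4, 6.95 and 35.6 FPKM in bone and 9.33, 51.1 and 45.1 FPKM in osteoblasts. By label, 0 of the 10 were called by limma and 0 had an unadjusted p under 0.05. The median difference was 1.14 against 0.12 over all genes.

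Of 11 erythroid regulators, 10 were named and tested (not the erythropoietin receptor *Epor*), and 9 of 10 were highest in the same 3 libraries, beside 38.4% of all genes. *Gata1* was 0.00270, 0.0157 and 61.6 FPKM in bone and 0, 61.9 and 55.5 FPKM in osteoblasts. *Klf1* was 0, 0.180 and 130 FPKM in bone and 0.0488, 124 and 98.8 FPKM in osteoblasts. Both factors were thus high where globin was high and at or near 0 elsewhere. *Bcl11a*, which represses embryonic globin, was 0, 0.222 and 5.01 FPKM in bone and 0, 5.80 and 6.57 FPKM in osteoblasts. The exception was *Tfrc*, the transferrin receptor through which cells take up iron, at 32.8, 18.2 and 23.3 FPKM in bone and 19.4, 44.6 and 45.2 FPKM in osteoblasts. By label 0 of 10 were called and 0 had an unadjusted p under 0.05, with a median difference of 1.38.

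Of 15 genes of the red cell membrane, 12 were named and tested (not, among others, *Epb41* or *Rhag*). Of these, 12 of 12 were highest in the same 3 libraries, beside 38.4% of all genes. *Slc4a1*, the anion exchanger band 3, was 0.0262, 0 and 714 FPKM in bone and 0, 663 and 619 FPKM in osteoblasts. *Epb42*, a protein of the red cell membrane skeleton, was 0, 0 and 26.7 FPKM in bone and 0, 37.2 and 34.3 FPKM in osteoblasts. *Aqp1*, a water channel that other cells make too, was the highest of the list in the low libraries, at 20.2 to 43.4 FPKM. By label 0 of 12 were called and 0 had an unadjusted p under 0.05, with a median difference of 1.89. The red cell genes *Epb42* and *Cldn13* were listed at 0 in bone 1, bone 2 and osteoblasts 1, where the globin rows summed to 16.7, 9.57 and 7.02 FPKM. On mean coverage the beta row stood at only 0.587, 0.312 and 0.288 there and the alpha row at 0.882, 0.453 and 0.272, near the limit of detection. *Alas2* was not at 0 there, at 0.208, 0.0880 and 0.0540 FPKM.

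Genes that deal with free hemoglobin and heme were mixed. Of 11 such genes 8 were named and 7 tested, of which 1 was highest and 2 were lowest in bone 3, osteoblasts 2 and osteoblasts 3, beside 38.4% and 16.9% of all genes, and no test was made of the difference. *Blvrb*, a biliverdin reductase abundant in red cells, was the highest one, at 198 to 227 FPKM against 42.7 to 85.4. *Blvra* and the ferritin light chain *Ftl1* were lowest there, with *Ftl1* at 2362 to 2494 FPKM against 3092 to 6367. The heme oxygenase *Hmox1*, which opens the heme ring, was 155, 70.3 and 80.0 FPKM in bone and 144, 116 and 132 FPKM in osteoblasts, with no division between the libraries. Haptoglobin, *Hp*, which binds free hemoglobin, was lowest in bone 2 at 69.5 FPKM and between 211 and 398 FPKM elsewhere. By label 0 of 7 were called and 0 had an unadjusted p under 0.05, with a median difference of 0.20.

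Of the other globin-fold genes, myoglobin (*Mb*), the oxygen store of muscle, was 0, 0 and 124 FPKM in bone and 0, 11.2 and 51.7 FPKM in osteoblasts. Its order, bone 3 above osteoblasts 3 above osteoblasts 2, was not that of the hemoglobin rows, for which osteoblasts 3 was highest. Cytoglobin, *Cygb*, found in fibroblasts, was 1.89, 0.118 and 3.09 FPKM in bone and 0.285, 2.50 and 2.46 FPKM in osteoblasts. Neuroglobin, *Ngb*, was at most 0.0728 FPKM. The theta globins *Hbq1a* and *Hbq1b* had no named row; a row without a name over *Hbq1a* was at most 0.0295 FPKM in the low libraries and between 4.77 and 10.6 in the high ones. By label 0 of 2 tested were called and 0 had an unadjusted p under 0.05, with a median difference of 0.43.

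Markers of neutrophils and muscle were high where the globins were high, and those of macrophages were low there. For scale, 38.4% of all genes were highest and 16.9% were lowest in these 3 libraries. Of 10 neutrophil markers 9 were named, and 9 of 9 were highest in bone 3, osteoblasts 2 and osteoblasts 3, with sums of 14968, 16499 and 18188 FPKM there and of 2.67 to 10.7 FPKM in the other libraries. *Elane*, neutrophil elastase, was listed at 0 in bone 1, bone 2 and osteoblasts 1. Of 9 skeletal muscle markers 4 were named, and 4 of 4 were highest in the same 3 libraries, with sums of 1208, 275 and 599 FPKM against 0.0860 to 1.14. Of 9 macrophage markers 7 were named, and 7 of 7 were lowest in these 3 libraries, with sums of 1683 to 2078 FPKM against 5535 to 10095. Their part in the globin levels was not tested.

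Markers of the labelled cells did not follow a single order. Of 10 osteoblast markers 8 were named, of which *Alpl*, *Ibsp* and *Tmem119* were lowest in bone 3, osteoblasts 2 and osteoblasts 3, *Bglap2* was highest there, and the sums lay between 5297 and 8574 FPKM in all 6 libraries. The *Bglap2* row was 6729 bp long against 966 bp in RefSeq and covered another coding gene. Of 7 osteocyte markers 6 were named and 5 tested, with *Sost* highest and *Dmp1* lowest in these 3 libraries and sums of 50.5 to 139 FPKM. By label limma called 0 of the 33 markers tested in these 5 lists, and 0 had an unadjusted p under 0.05. The median differences were 3.17 for neutrophil, 1.53 for muscle, -0.69 for macrophage, -0.33 for osteoblast and 0.08 for osteocyte markers.

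**Figure D4:**
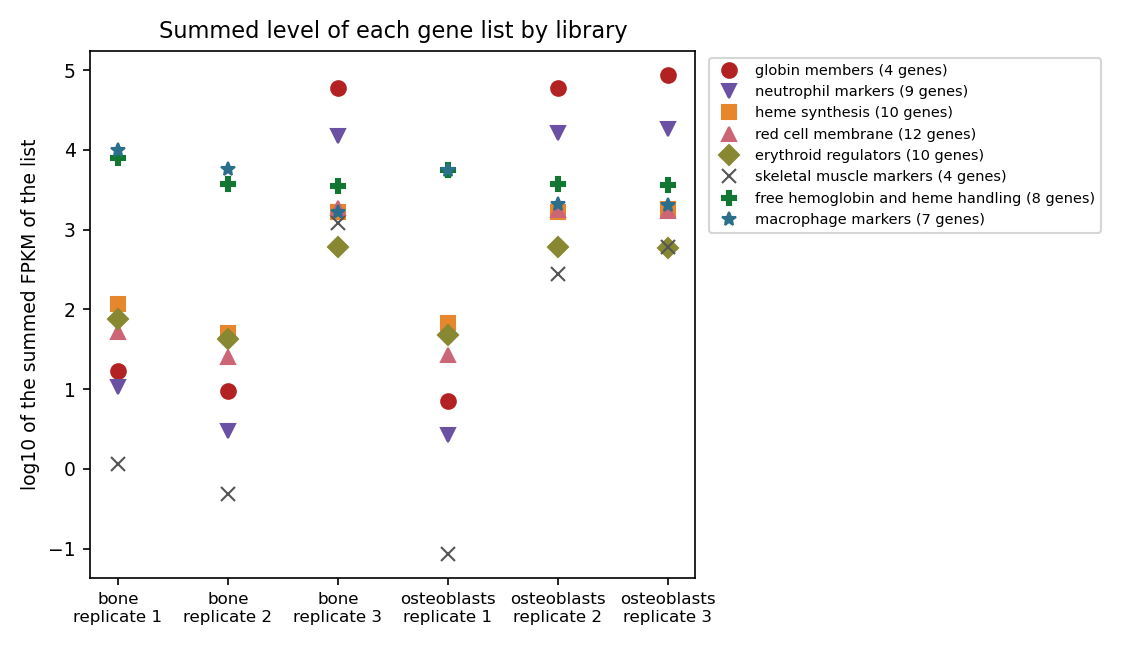
Log10 of the summed FPKM of 8 gene lists on the y axis for each library on the x axis, with 1 symbol per list and the number of named genes in the legend. The globin, neutrophil, heme synthesis, red cell membrane, erythroid regulator and muscle sums were high in bone 3, osteoblasts 2 and osteoblasts 3, and the macrophage sum was low there.

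By the root mean square difference of centred log2(FPKM + 1) over the 6 libraries, the genes nearest to the summed globin rows were *S100a9* (0.42), *Ngp* (0.84), *Camp* (0.91), *S100a8* (1.18) and *Prg2* (1.22). The first 4 encode proteins of neutrophil granules or cytosol and *Prg2* encodes the major basic protein of eosinophils. The measure depends on the height of the step as well as on its order, so genes at lower levels lie further off whatever their order. *S100a9* was 0.922, 0 and 4775 FPKM in bone and 0.573, 7072 and 8033 FPKM in osteoblasts. The row named *S100a8* was 4803 bp long against 964 bp in RefSeq. The *Nprl3* row, which crosses the alpha globins, followed at 1.37, and *Alas2* stood at 1.56.

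Apart from *Nprl3*, the named neighbours of both clusters were at most 13.1 FPKM in the 3 libraries with high globin. Within 100 kb of the alpha row, *Snrnp25*, a splicing factor gene, was 6.95, 3.09 and 13.1 FPKM in bone and 4.20, 12.6 and 10.5 FPKM in osteoblasts. *Mpg*, a DNA repair glycosylase gene, was between 2.50 and 3.68 FPKM in bone 1, bone 2 and osteoblasts 1 and between 6.41 and 8.18 FPKM in the others. Both were higher in the libraries with high globin, an order that 38.4% of all genes had. *Sh3pxd2b*, on the other side, went the other way, at 18.4 to 37.8 FPKM in the libraries with low globin and 7.96 to 11.5 in those with high globin. Beside the beta row the olfactory receptor genes were at most 0.0541 FPKM, although the row without a name on the opposite strand runs across several of them, and *Dnajc19-ps* was 3.54 to 9.26 FPKM.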

How the data were processed

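Total RNA was made into libraries with a TruSeq RNA v2 kit, which does not mark strand, and sequenced as 75 bp pairs. Per the labels and the study's methods, the authors aligned reads to GRCm38 with HISAT2 2.0.5 and quantified them with StringTie 1.3.3 (the submitters' notes also name SAMtools 1.7). The authors deposited FPKM, TPM and coverage (signal) per row and no counts.

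Rows of 1 name were summed. The members and gene lists were chosen with earlier results of these data known. The design named *Hba-a1*, *Hba-a2* and *Hbb-bs* separately, and the rows that contain them were used instead. Genes with a mean of at least 1 FPKM over 6 libraries were tested with limma 3.58.1 (R 4.3.3, trend, Benjamini-Hochberg, threshold 0.05) on log2(FPKM + 1), a scale that understates changes of low genes. Single values used exact permutation tests (numpy 2.4.6), and the Poisson intervals used scipy 1.17.1. Depth was read from the ratio of coverage to FPKM in rows with coverage of at least 1, and 3 read pairs on 1 kb are 0.133 to 0.221 FPKM. A few list genes are counted but not reported here by name. The named genes were the members, list genes, the 5 nearest profiles and neighbours within 100 kb with at least 1 FPKM. Names, positions and promoters came from RefSeq GRCm38.p6, and coding sequences from GENCODE vM1 without coordinates. Alternatives were a pseudocount of 0.1, no filter, TPM, 2 other scalings, no trend, a replicate block, and leaving out libraries.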

Additional observations from a re-analysis of the deposited data

How the results depend on the processing

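The number of globin rows called by limma was 0 as reported and under a pseudocount of 0.1, no filter on low values, TPM, scaling to named genes or to the 75th percentile, and no trend. It ranged from 0 to 2 when a library was left out, with 2 without bone 3 and 2 without osteoblasts 1, where 77 and 300 of all genes were called. With the replicate block it was also 2 (adjusted p = 0.000877 for *Hbb-bt* and 0.00365 for *Hba-x*, with 49 of all genes called). In that fit the prior degrees of freedom were infinite beside 2 residual ones, so each gene took the variance of the trend rather than its own. Same-numbered libraries had deviations from their label means that correlated at 0.84, -0.75 and 0.83 over 12112 genes, and 3 of 6 libraries were closest to their own number, so the numbers were not taken to pair the samples. For the summed rows the block gave the same difference of 3.95 (exact sign-flip permutation p = 0.75, smallest possible 0.25), and for the ratio the same -0.43 (p = 0.5). Leaving out single libraries gave 1.62 to 8.33 for the sum and -0.75 to -0.22 for the ratio, with the direction kept. Bone 3 against osteoblasts 1 alone reversed both, to -12.88 for the sum and 0.50 for the ratio. The row *Hbb-bt* alone gave 4.16, and the ratio with the opposite-strand rows gave -0.61 (exact permutation p = 0.4), and levels from mean coverage gave 3.81 and -0.20 (p = 0.8 and 0.2). These were chosen after seeing the data. Depth limits the embryonic genes, read against a limit of 3 read pairs, and the adult rows in the 3 low libraries.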
